A study of Citrus sinensis with 12 samples.

Results

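In roots of sweet orange (Citrus sinensis) seedlings, 57 of the 18730 listed annotated genes were much higher in roots that met low pH together with excess copper than in every other root pool of the series. These genes were selected on the FPKM values themselves (fragment counts scaled to gene length and to library size). Each of the 3 libraries at pH 3 with 300 µM CuCl2 had to be at least 4 times each of the 9 other libraries, and the mean of those 3 libraries had to be at least 5 FPKM. The deposited tables list 20122 loci, the annotated genes among them and assembled loci without an annotated identifier. The series holds 4 groups of 3 libraries: pH 3 with 300 µM copper, pH 3 with 0.5 µM copper, pH 4.8 with 300 µM copper, and pH 4.8 with 0.5 µM copper, the control. All seedlings had been treated for 17 weeks, and the frozen roots of 4 seedlings were combined in each library, so p-values measure the spread among such pools. The titles of the control samples give 5 µM copper, but their treatment labels and the study's design give 0.5 µM, which is used here.

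Copper is a cofactor of plant enzymes that carry electrons or handle oxygen, and it is needed in traces only. In excess it takes part in redox cycles that generate reactive oxygen species and it binds to thiol groups of proteins. Roots meet excess copper before the rest of the plant and hold much of it in their cell walls. Low pH adds the burden of protons on cell wall and membrane, and copper ions are in general more soluble and less firmly bound in acid media.

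The files pair none of the identifiers with a gene name, and 0 of them occur in the RefSeq table of the species, so the genes are described by identifier, position, level and pattern. For the same reason the tissue could not be checked with root marker genes. The genome build behind the coordinates, and how reads of near-identical gene copies were counted, were not stated in any source used here. Step sizes among low FPKM values gave a depth of 17710000 to 22780000 fragments per library, and a count of 3 fragments for a 1 kb gene equals 0.1317 to 0.1694 FPKM. The libraries at pH 3 with 300 µM copper listed 8 to 15 loci at 0, against 41 to 118 in the 9 other libraries, and whether this plays a part in the values at the low end was not tested. In bulk roots, a change in the share of cells that express a gene and a change in expression per cell cannot be told apart.

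The 57 genes together made up 0.557% to 0.771% of the summed FPKM at pH 3 with 300 µM copper. Their share was 0.0305% to 0.0323% at pH 3 with 0.5 µM copper, 0.026% to 0.0378% at pH 4.8 with 300 µM copper and 0.0184% to 0.0255% in the control. The median gene stood at 18.21 to 25.61 FPKM in the libraries with both treatments. It stood at 1.11 to 1.38 FPKM with low pH alone, at 1.03 to 1.77 FPKM with copper alone and at 0.97 to 1.48 FPKM in the control. The selection fixed that the group with both treatments lies apart, and no test is attached to these values. The 3 other groups had close medians.

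**Figure D1:**
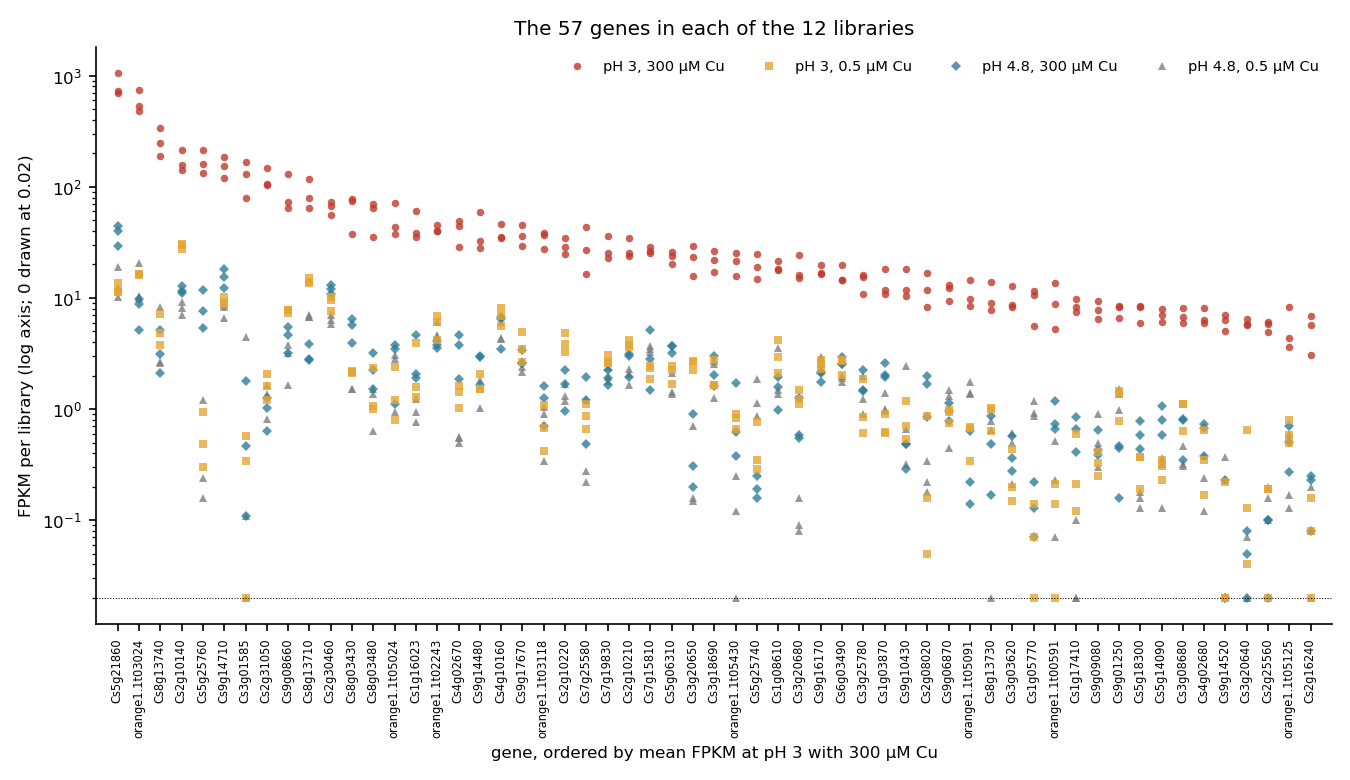
FPKM of the 57 genes in each of the 12 libraries, on a log axis, with genes ordered by their mean at pH 3 with 300 µM copper (points: libraries; values of 0 drawn at 0.02). The libraries with both treatments lie above the others by selection; among the other 9, the order of the groups changes from gene to gene.

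With both treatments, the group means ran from 5.24 to 824 FPKM with a median of 21.8 FPKM, and 8 genes reached a mean of 100 FPKM, whereas 15 were under 10 FPKM. In the absence of the combination many of the genes were barely detected. The mean was under 1 FPKM for 26 genes with low pH alone, for 25 with copper alone and for 24 in the control, and 10 genes stayed under 1 FPKM in each of the 9 other libraries. At least 1 value of 0 was listed for 10 genes, 20 such values in all. Genes that were abundant with both treatments also tended to be the higher ones elsewhere: across the 57 genes, Spearman's rho between the group mean with both treatments and the group mean was 0.74 for low pH alone, 0.82 for copper alone and 0.73 for the control. This is a description across genes that share libraries and gene models. The selection also caps a gene's other libraries at a level that rises with its level under both treatments. A positive rho is therefore partly built in and is no separate result.

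The most abundant of them was Cs5g21860 on chromosome 5 (24360056 to 24361268), with 691.29, 1050.49 and 729.20 FPKM at pH 3 with 300 µM copper. It had 13.56, 11.61 and 11.31 FPKM at pH 3 with 0.5 µM copper, 44.68, 29.36 and 40.30 FPKM at pH 4.8 with 300 µM copper, and 12.22, 10.09 and 19.03 FPKM in the control. Copper alone stood above the control without overlap, and the libraries with low pH alone lay within the control's range. The next, orange1.1t03024 on unplaced sequence (47124099 to 47126213), had 482.64, 735.95 and 529.26 FPKM with both treatments, 15.92, 16.51 and 16.58 FPKM with low pH alone, 9.71, 5.17 and 8.73 FPKM with copper alone, and 10.49, 9.96 and 20.59 FPKM in the control. Here the libraries with copper alone were the lowest of the 4 groups.

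Cs8g13740 on chromosome 8 (16493767 to 16494733) had 187.47, 335.64 and 249.28 FPKM with both treatments, 4.83, 7.14 and 3.75 FPKM with low pH alone, 5.19, 3.14 and 2.12 FPKM with copper alone, and 2.65, 2.62 and 8.37 FPKM in the control. Its 3 lower groups overlapped. Cs2g10140 on chromosome 2 (7497240 to 7499391) had 156.81, 213.22 and 142.85 FPKM with both treatments, 30.13, 27.81 and 30.79 FPKM with low pH alone, 12.76, 11.15 and 11.62 FPKM with copper alone, and 8.06, 9.21 and 7.06 FPKM in the control. In this gene the 4 groups formed 4 steps without overlap.

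Cs5g25760 on chromosome 5 (28609629 to 28610819) had 133.07, 214.44 and 159.98 FPKM with both treatments, 0.49, 0.94 and 0.30 FPKM with low pH alone, 11.88, 5.40 and 7.70 FPKM with copper alone, and 1.20, 0.16 and 0.24 FPKM in the control. Copper alone lay above low pH alone and above the control without overlap, and those other groups overlapped. Cs9g14710 on chromosome 9 (14117380 to 14118839) had 119.20, 187.11 and 152.42 FPKM with both treatments, 10.20, 8.74 and 8.93 FPKM with low pH alone, 18.12, 12.33 and 15.32 FPKM with copper alone, and 8.66, 6.59 and 8.23 FPKM in the control. Copper alone was again the higher of the single treatments, without overlap.

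Cs3g01585 and Cs2g31050 completed the 8 genes of 100 FPKM or more. Cs3g01585, on chromosome 3 (770541 to 771107), had 78.96, 166.89 and 129.70 FPKM with both treatments, 0.00, 0.57 and 0.34 FPKM with low pH alone, 0.47, 0.11 and 1.78 FPKM with copper alone, and 0.11, 0.00 and 4.44 FPKM in the control. Most of its values outside the combination lay at or near the level of a few fragments. Replicate 3 of copper alone, at 1.78 FPKM, and replicate 3 of the control, at 4.44 FPKM, stood above that level. Cs2g31050 on chromosome 2 (30420100 to 30420755) had 105.88, 147.34 and 104.76 FPKM with both treatments, 2.07, 1.61 and 1.20 FPKM with low pH alone, 1.26, 1.03 and 0.63 FPKM with copper alone, and 0.81, 1.37 and 1.64 FPKM in the control. Its 3 lower groups overlapped.

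**Figure D2:**
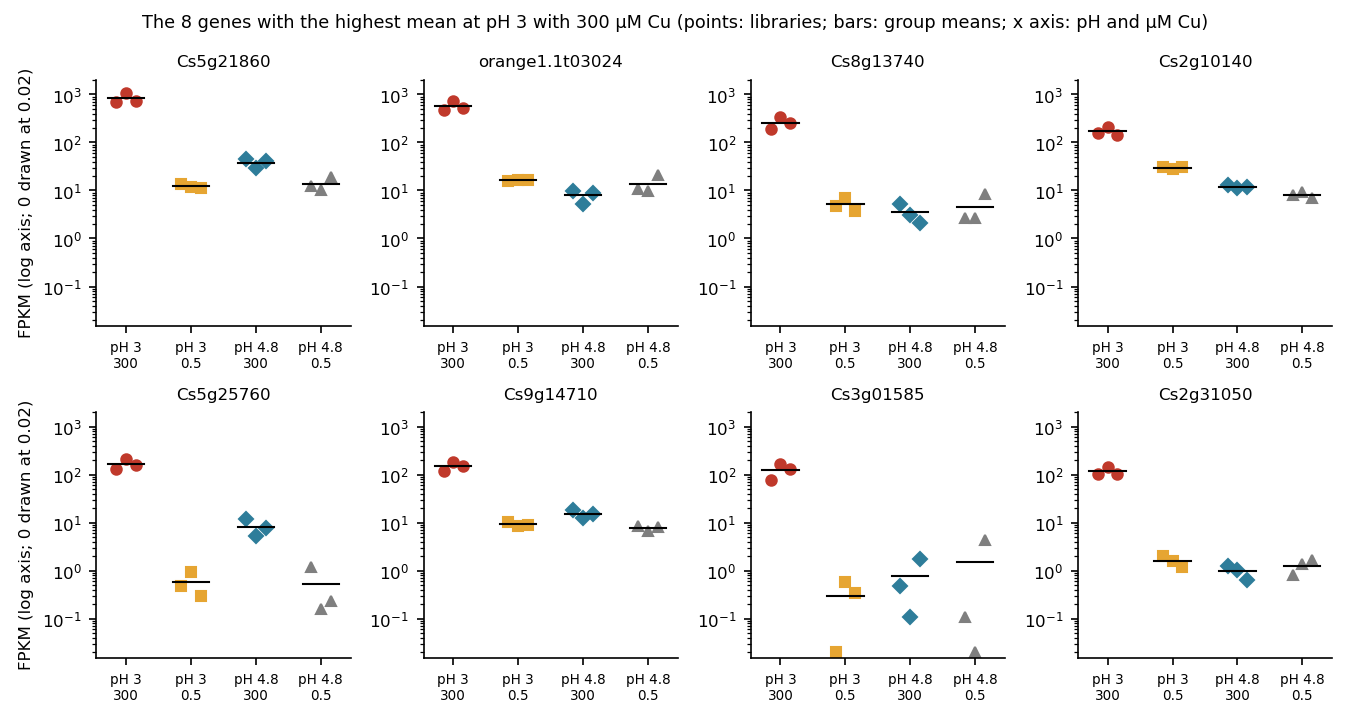
FPKM per library of the 8 genes whose mean reached 100 FPKM at pH 3 with 300 µM copper, on a log axis (points: libraries; bars: group means; values of 0 drawn at 0.02; x axis: pH and µM copper). Cs2g10140 shows a step at each group, Cs5g25760 shows a rise with copper alone as well, and Cs2g31050 lies between 0.63 and 2.07 FPKM in all 9 other libraries.

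The margin by which a gene met the selection was measured as its lowest library with both treatments over its highest other library. This ratio ranged from 4.15 to 50.6, with a median of 6.35. It reached 10 in 14 genes and 20 in 4 genes, and it was under 5 in 16 genes. The widest margin, 50.6, belonged to Cs2g31050. Cs2g25560 followed at 24.8, a gene at a low level on chromosome 2 (24763856 to 24765366) that had 4.95, 6.05 and 5.85 FPKM with both treatments and 0.00 to 0.20 FPKM elsewhere. The ratios of orange1.1t03024 and Cs8g13740 were 23.4 and 22.4. Those of Cs3g01585, orange1.1t03118 and Cs5g21860 were 17.8, 17.2 and 15.5. The 8 widest margins thus included 5 of the 8 most abundant genes, and they ended with Cs9g14520 at 13.7, whose model spans 316 bp, the shortest among the 57, and which had 6.28, 7.05 and 5.07 FPKM with both treatments and 0.00 to 0.37 FPKM elsewhere. Where the other libraries hold a few fragments only, such a ratio is imprecise.

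At the other end, Cs1g03870 met the selection at a ratio of 4.15, Cs2g08020 at 4.16 and Cs4g10160 at 4.24. Just outside were Cs3g26640 at 3.98, Cs7g27010 at 3.93 and orange1.1t03357 at 3.85. Cs4g10160, the nearest member at a higher level, had 35.18, 45.90 and 34.60 FPKM with both treatments, against 8.16, 6.91 and 5.57 FPKM with low pH alone. Cs3g26640 had 20.10, 17.90 and 14.77 FPKM with both treatments, against 2.54, 3.14 and 2.86 FPKM with low pH alone and 3.40, 3.11 and 3.71 FPKM in the control. Replicate 3 of the control was its highest other library and set its ratio. The threshold therefore divides a continuous range of ratios. The ratio of 4 was also reached by 45 annotated genes whose mean with both treatments was under 5 FPKM, the highest of them at 4.92 FPKM.

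Libraries with both treatments agreed within a factor of 1.12 to 2.64 in each of the 57 genes, with a median ratio of highest to lowest of 1.53. The selection drops genes in which any of these libraries is low, so this agreement is partly built in. The spread was widest in Cs7g25580, with 16.27, 26.73 and 43.01 FPKM, in orange1.1t00591, with 8.89, 13.54 and 5.30 FPKM, and in orange1.1t05125, with 8.29, 3.65 and 4.33 FPKM. It was narrowest in orange1.1t02243, with 40.35, 45.21 and 40.38 FPKM, in Cs3g20640, with 5.83, 6.48 and 5.72 FPKM, and in Cs7g15810, with 25.15, 26.44 and 28.70 FPKM. Replicate 2 was the highest of the 3 libraries for 40 of the 57 genes, whereas it was the highest for 41.0% of the 19204 loci whose mean reached 1 FPKM in any group. Among the libraries with copper alone, replicate 1 was the highest for 35 of the 57 genes, against 33.8% of loci. Among the controls, replicate 3 was the highest for 37 of the 57, against 33.7% of loci. Many of the genes were thus highest in the same pool of a treatment. Without replicate 2 of the combined treatment 56 genes met the same criteria, all of them among the 57, and without replicate 3 of the control 59 did.

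Which of the treatments moved these genes by itself is a question that the selection did not use, since it bounds the 9 other libraries from above but sets no order among them. The differences were tested on log2(FPKM + 1) in limma with those 9 libraries alone, over the 18871 loci whose mean reached 1 FPKM in any of the 3 groups, and a gene was called at a Benjamini-Hochberg adjusted p under 0.05. Of the 57 genes, 41 passed this filter and 16 did not, because their mean was under 1 FPKM in all 3 groups. The scale understates changes near 1 FPKM, where most of these genes lie. With no filter all 57 could be tested, and those counts are given beside the others. The tests of copper alone and of low pH alone share the 3 control libraries.

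Copper alone, at pH 4.8, raised 14 of the 41 genes and lowered 6. Of all tested loci, 28% rose and 29.3% fell. With no filter, 19 of the 57 genes rose and 7 fell, against 27.3% and 27.8% of all loci. The 14 and 6 genes are 34.1% and 14.6% of the 41, shares whose distance from those of all loci was not tested, and values near 1 FPKM leave little room to fall on this scale. Among the 12 genes that reached a mean of 5 FPKM in any of the 3 groups, 7 rose (58.3%) and 2 fell (16.7%), against 30.3% and 34.1% of all loci at that level. Of these 7, 6 are among the 14. Cs5g25760 and Cs8g03430 reached 5 FPKM with copper alone only, at means of 8.33 and 5.39 FPKM. Entry to the 12 and a rise are therefore not independent, and these shares are no separate support for a rise. The median difference over the 57 genes was 0.19 log2 units, against -0.01 over all loci.

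The largest rise in the 41 genes with copper alone was that of Cs5g25760, with 8.33 ± 3.29 FPKM at 300 µM and 0.533 ± 0.579 FPKM at 0.5 µM (SD, n = 3 each), which gave a log2 difference of 2.61 (adjusted p = 1.6e-05 in limma, SE 0.29). With a pseudocount of 0.1 in place of 1, this difference was 4.04. Cs4g02670 on chromosome 4 (1245320 to 1246770) had 3.41 ± 1.42 FPKM at 300 µM and 0.537 ± 0.0321 FPKM at 0.5 µM, and the log2 difference was 1.46 (adjusted p = 0.00015 in limma, SE 0.22), or 2.37 with the smaller pseudocount. Cs5g21860, the most abundant gene with both treatments, also rose with copper alone, at 38.1 ± 7.89 FPKM against 13.8 ± 4.67 FPKM in the control (1.43, SE 0.20, limma adjusted p = 1e-04). In these 3 genes the libraries with copper alone and the controls did not overlap. The lowest library with both treatments was 15.5, 11.2 and 6.14 times the highest other library in Cs5g21860, Cs5g25760 and Cs4g02670, a ratio that the selection required to be at least 4.

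The other 11 that rose with copper alone were led by Cs8g03430, with 5.76, 6.48 and 3.93 FPKM at 300 µM against 1.5, 1.5 and 2.19 FPKM in the control, a gene that rose by 1.21 log2 units. Cs2g08020, Cs1g16023, Cs9g14710, Cs2g30460 and Cs5g06310 rose by 0.98, 0.90, 0.87, 0.81 and 0.79. Cs3g20680, Cs1g03870, Cs9g14480, Cs2g10140 and Cs6g03490 rose by 0.67, 0.58, 0.50, 0.50 and 0.36. The calls of Cs1g16023, Cs9g14480 and Cs6g03490 were each lost without any of several libraries, replicate 1 of the control among them (0.82, 0.37 and 0.33). As an example, Cs2g30460 had 13.07, 10.80 and 11.94 FPKM with copper alone and 5.77, 6.97 and 6.37 FPKM in the control, and 67.28, 72.37 and 56.09 FPKM with both treatments. That the combined treatment lies well above copper alone was fixed by the selection in all of these genes.

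Among the 6 genes that copper lowered at pH 4.8, the falls of Cs8g13710, orange1.1t05091 and Cs5g25740 were the largest. Cs8g13710 on chromosome 8 (16420102 to 16421813) had 78.55, 117.35 and 64.47 FPKM with both treatments, whereas copper alone left 3.81, 2.82 and 2.76 FPKM against 7.05, 6.72 and 6.71 FPKM in the control, and the log2 difference was -0.93 (adjusted p = 2.7e-05 in limma, SE 0.11). The gene orange1.1t05091 on unplaced sequence (82511065 to 82511843) had 0.22, 0.64 and 0.14 FPKM with copper alone and 1.39, 1.38 and 1.75 FPKM in the control, and the log2 difference was -0.93 (adjusted p = 0.00061 in limma, SE 0.17). Cs5g25740 on chromosome 5 (28599213 to 28600232) had 0.25, 0.16 and 0.19 FPKM with copper alone and 1.13, 0.87 and 1.88 FPKM in the control, and the log2 difference was -0.91 (adjusted p = 0.0012 in limma, SE 0.18). With both treatments these genes stood at 10.9 ± 3.26 FPKM (orange1.1t05091) and 19.6 ± 4.97 FPKM (Cs5g25740). Their falls were -2.06 and -2.16 with a pseudocount of 0.1. The others that fell were Cs9g01250, Cs9g16170 and orange1.1t03024, with differences of -0.75, -0.33 and -0.69. The call of orange1.1t03024 was lost without replicate 2 of copper alone (-0.45) or replicate 3 of the control (-0.38), and that of Cs9g16170 without replicate 3 of copper alone or replicate 2 or 3 of the control (-0.31 to -0.27).

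Low pH alone, at 0.5 µM copper, raised 9 of the 41 genes and lowered 2, where 16.5% of all tested loci rose and 25.2% fell. With no filter, 11 of the 57 rose and 3 fell, against 15.8% and 23.8% of all loci. The 9 and 2 genes are 22% and 4.88% of the 41. The split of all loci depended on the scaling of the libraries: 20.3% rose and 20.8% fell after median scaling, with 11 of the 41 genes higher and 2 lower, and 19.8% rose and 20.7% fell after quantile normalization, with 12 higher and 2 lower. The median difference over the 57 genes was 0.18 log2 units, against -0.05 over all loci.

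Cs2g10140 rose most, with 29.6 ± 1.57 FPKM at pH 3 and 8.11 ± 1.08 FPKM at pH 4.8 (SD, n = 3 each), which gave a log2 difference of 1.75 (adjusted p = 2.4e-06 in limma, SE 0.10). Cs3g20650 on chromosome 3 (23672847 to 23674848) had 2.65, 2.25 and 2.69 FPKM at pH 3 and 0.15, 0.16 and 0.71 FPKM at pH 4.8, and the log2 difference was 1.42 (adjusted p = 3e-04 in limma, SE 0.20), or 2.81 with a pseudocount of 0.1. Cs9g08660 on chromosome 9 (5838744 to 5839348) had 7.84, 7.77 and 7.30 FPKM at pH 3 and 1.63, 3.74 and 3.17 FPKM at pH 4.8, and the log2 difference was 1.21 (adjusted p = 0.00095 in limma, SE 0.21). These 3 genes showed no overlap between low pH and control, and with both treatments they stood at 171 ± 37.3, 22.8 ± 6.96 and 89.0 ± 36.1 FPKM. The other 6 that rose were Cs2g10220, Cs3g20680, Cs8g13710, Cs2g10210, Cs4g02670 and Cs2g30460, by 1.06, 1.03, 0.96, 0.70, 0.61 and 0.45 log2 units. The call of Cs4g02670 was lost without replicate 1 or 3 at pH 3 or without any of the 3 controls, with differences of 0.53 to 0.62, and also when all 12 libraries entered the fit (0.61).

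The 2 genes that fell with low pH alone were orange1.1t05091 and Cs5g25740. The gene orange1.1t05091 had 0.68, 0.69 and 0.34 FPKM at pH 3, against 1.39, 1.38 and 1.75 FPKM at pH 4.8, and the log2 difference was -0.68 (adjusted p = 0.0072 in limma, SE 0.17). Cs5g25740 had 0.29, 0.77 and 0.35 FPKM at pH 3, against 1.13, 0.87 and 1.88 FPKM at pH 4.8, and the log2 difference was -0.63 (adjusted p = 0.016 in limma, SE 0.18). Its call was lost without replicate 1 or replicate 3 at pH 3 or replicate 3 of the control (-0.58 to -0.46). Both tests of these genes use the same control libraries.

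**Figure D3:**
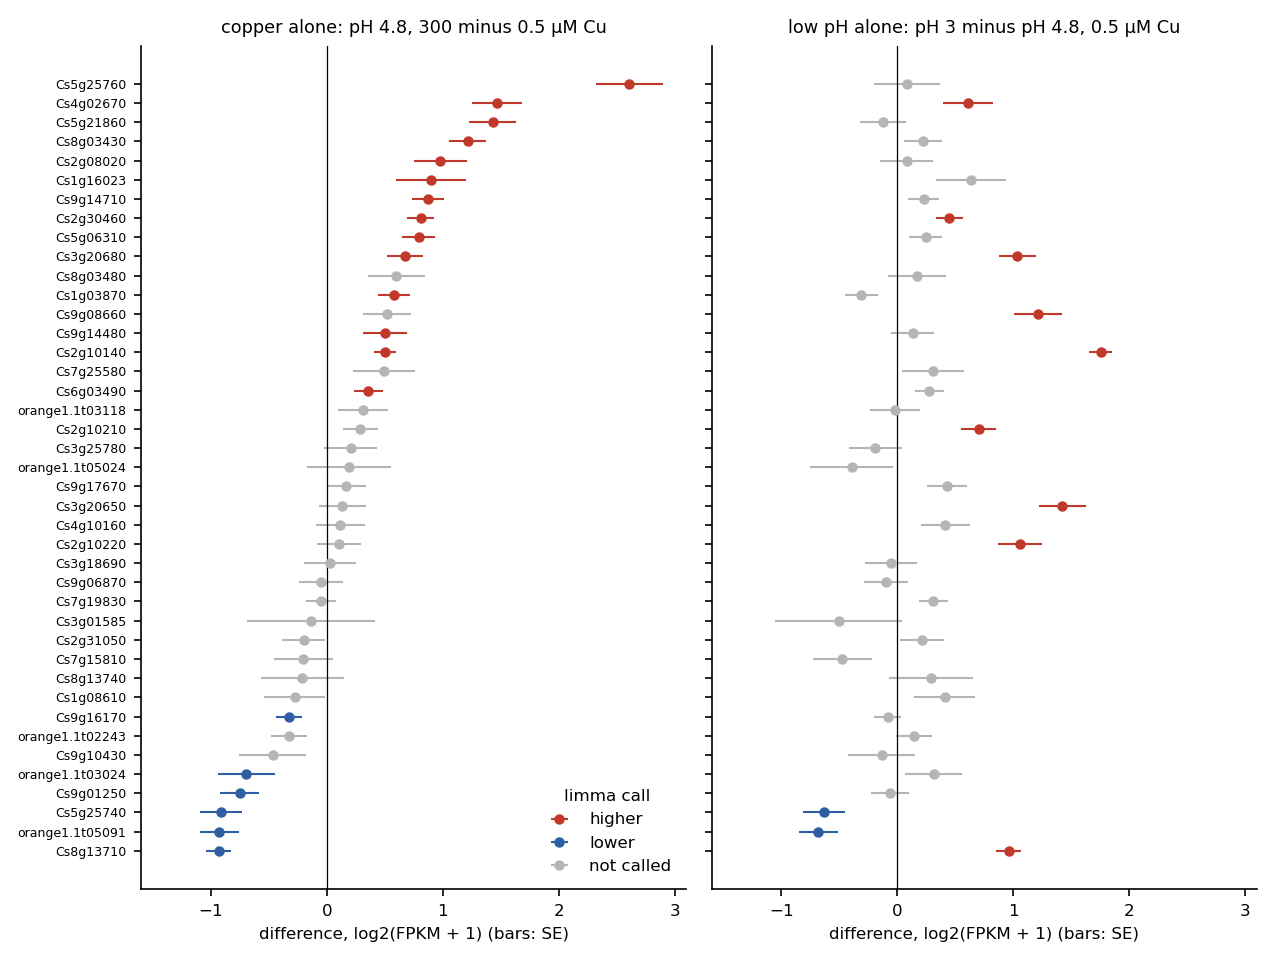
Difference on log2(FPKM + 1) with its SE (bars) for the 41 tested genes, with copper alone on the left (pH 4.8, 300 minus 0.5 µM copper) and low pH alone on the right (pH 3 minus pH 4.8, 0.5 µM copper), in the same gene order. Colours give the limma call at an adjusted p under 0.05: 14 genes were higher and 6 lower with copper alone, and 9 were higher and 2 lower with low pH alone.

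The 16 genes that stayed under the filter include several that differed among the 3 groups at very low levels. Cs1g05770 had 10.62, 11.54 and 5.57 FPKM with both treatments, 0.07, 0.14 and 0.00 FPKM with low pH alone, 0.22, 0.13 and 0.07 FPKM with copper alone, and 0.93, 1.19 and 0.87 FPKM in the control, so that both single treatments lay below the control without overlap. The gene orange1.1t05430 had 21.67, 25.61 and 15.64 FPKM with both treatments, 0.83, 0.91 and 0.66 FPKM with low pH alone, 1.70, 0.62 and 0.38 FPKM with copper alone, and 0.12, 0.00 and 0.25 FPKM in the control. There both single treatments lay above the control without overlap. Cs1g17410, with 9.71, 7.47 and 8.35 FPKM with both treatments, showed the same order, since it had 0.21, 0.12 and 0.60 FPKM with low pH alone, 0.66, 0.84 and 0.41 FPKM with copper alone, and 0.00, 0.00 and 0.10 FPKM in the control. These 3 were chosen after their values were seen, and the lowest of their values rest on a few fragments.

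Set directly against each other, low pH alone gave higher levels than copper alone for 11 of the 41 genes and lower levels for 9, where 22.1% of all tested loci were higher and 33.2% lower. With no filter the counts were 11 and 12 of 57, against 21.1% and 31.8%. The larger share of lower loci turned round after median scaling, where 28.2% were higher and 26.1% lower, with 14 and 8 of the 41 genes, whereas quantile normalization gave 25.3% and 28.9%, also with 14 and 8 of the 41. Without replicate 1 of low pH alone 7 genes were higher, and without replicate 2 of copper alone 6 were. Cs8g13710, with 13.76, 13.82 and 15.11 FPKM under low pH alone and 3.81, 2.82 and 2.76 FPKM under copper alone, had the largest difference upward (1.89, SE 0.11, limma adjusted p = 1.5e-07). Cs3g20650 and Cs2g10140 followed, by 1.29 and 1.25 log2 units. The largest differences downward were those of Cs5g25760, at 0.577 ± 0.329 FPKM under low pH alone and 8.33 ± 3.29 FPKM under copper alone (-2.53, SE 0.29, limma adjusted p = 2.3e-05), of Cs5g21860 (-1.55, SE 0.20, limma adjusted p = 5.8e-05) and of Cs8g03430 (-0.99, SE 0.16, limma adjusted p = 0.00033). The highest mean among the 3 other groups was that of copper alone for 25 genes, that of low pH alone for 19 and that of the control for 13.

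As a description, the level with both treatments can be set beside the sum of the separate differences. Over the 57 genes the combination lay 3.17 log2 units above the control at the median, whereas the separate differences of copper and of low pH added up to 0.44 at the median, with a range of -1.71 to 2.69. The excess over that sum ran from 1.70 in orange1.1t05125 to 6.69 in Cs3g01585, with a median of 2.78. For Cs2g10140 the separate differences added up to 2.25 and the combination stood 4.22 above the control, so the excess was 1.97. For orange1.1t03024 the sum was -0.38 and the combination stood 5.36 above the control. The selection favours such an excess, since it sets the combination at least 4 times above every other library, so no test is attached. It would not force an excess in a gene that both single treatments raise far above the control.

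Position on the genome was not used in the selection. Of the 57 genes, 49 lie on the 9 numbered chromosomes and 8 on unplaced sequence. Chromosome 9 carried 10 of them, 0.816% of its 1226 listed annotated genes, and chromosome 6 carried 1, 0.0645% of 1551. The plus strand held 29 and the minus strand 28. None overlapped another listed locus. The gene models were short: the median span was 1554 bp against 3225 bp over all annotated genes, and 12 of the 57 (21.1%) spanned under 1000 bp, against 7.75% of annotated genes.

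A group of 17 genes lay in 7 runs, in which a member followed another within 5 places in the order of listed annotated genes. Members were 0.306% of placed annotated genes. On chromosome 2 (7497240 to 7548858) the run held Cs2g10140, Cs2g10210 and Cs2g10220, and all 3 rose with low pH alone. Cs2g10210 had 23.97, 34.31 and 25.24 FPKM with both treatments, and 3.65, 4.18 and 3.80 FPKM with low pH alone. Cs2g10220 had 34.62, 28.79 and 24.61 FPKM with both treatments, and 4.87, 3.27 and 3.88 FPKM with low pH alone. On chromosome 3 (23664565 to 23690592) Cs3g20640, Cs3g20650 and Cs3g20680 were consecutive in the listed order. Cs3g20680 had 15.95, 24.42 and 15.15 FPKM with both treatments, 1.47, 1.24 and 1.12 FPKM with low pH alone, 1.25, 0.59 and 0.55 FPKM with copper alone, and 0.08, 0.16 and 0.09 FPKM in the control. Their listed neighbours Cs3g20620 and Cs3g20690 were at 11.3 and 31.5 FPKM with both treatments, and at 12.5 and 22.1 FPKM in the control.

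On chromosome 8 there were 2 runs. Cs8g13710, Cs8g13730 and Cs8g13740 were consecutive on the minus strand (16420102 to 16494733), with group means of 86.8, 10.2 and 257 FPKM with both treatments and 6.83, 0.477 and 4.55 FPKM in the control. The flanking Cs8g13750 was at 6.35 ± 1.02 FPKM with both treatments and at 6.26 ± 0.333 FPKM in the control. Cs8g03430 and Cs8g03480 (1634117 to 1666286) had 63.4 ± 22.3 and 56.2 ± 18.6 FPKM with both treatments and 1.73 ± 0.398 and 1.17 ± 0.475 FPKM in the control, and replicate 1 was the lowest of the combined treatment in both, at 37.64 and 34.98 FPKM. Cs8g03450, which lies between them, was at 0.653 ± 0.479 FPKM with both treatments and at 1.16 ± 0.111 FPKM in the control. The pattern was thus not shared by every gene of that stretch.

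The remaining runs were pairs. Cs4g02670 and Cs4g02680 were adjacent on chromosome 4, with 28.51, 44.75 and 48.73 FPKM and 5.98, 6.30 and 8.13 FPKM with both treatments. The next listed gene, Cs4g02690, was high with both treatments as well, at 224 ± 44.1 FPKM, but also in the control, at 60.4 ± 14.3 FPKM, and was at 2.18 ± 0.324 FPKM with copper alone. On chromosome 5 Cs5g25740 and Cs5g25760 were adjacent in the listed order and differed in their response to copper alone, which lowered Cs5g25740 and raised Cs5g25760 in the tests above. On chromosome 9 Cs9g14480, with 32.36, 59.56 and 28.34 FPKM with both treatments, and Cs9g14520 enclosed 3 genes at lower levels. These were Cs9g14490, Cs9g14500 and Cs9g14510, at 3.89, 1.18 and 4.21 FPKM with both treatments and 0.437, 0.0833 and 0.567 FPKM in the control. With copper alone they were at 2.04, 0.077 and 1.99 FPKM, and with low pH alone at 0.827, 0.033 and 0.57 FPKM.

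**Figure D4:**
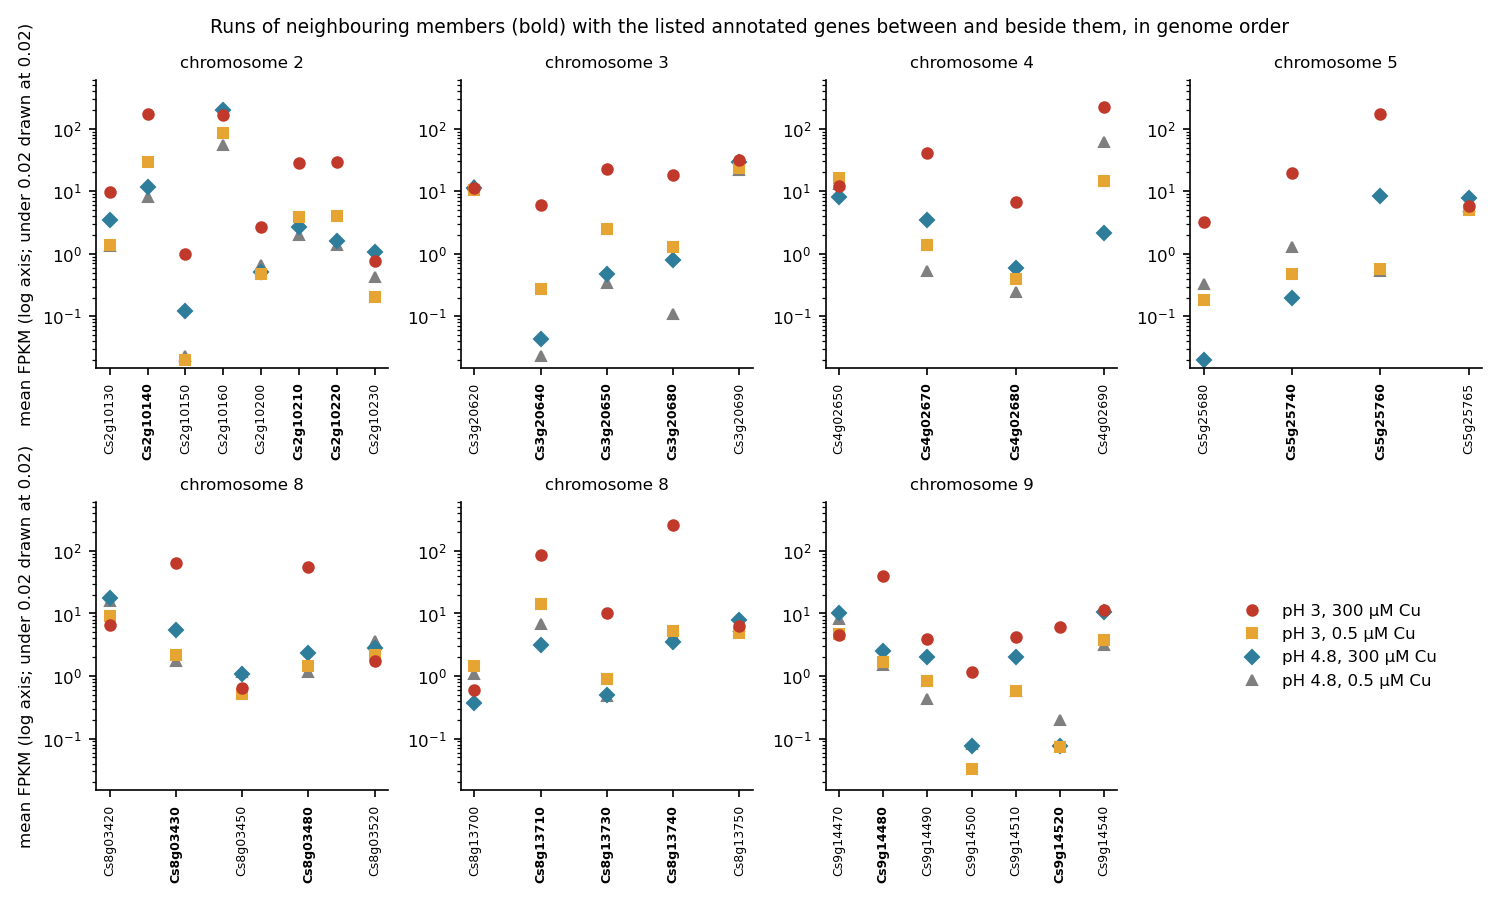
Group mean FPKM, on a log axis, of the members of the 7 runs (bold names), the listed annotated genes between them and the next listed gene on each side, in genome order (means under 0.02 drawn at 0.02). At Cs8g03450 and Cs8g13750 the mean with both treatments is not above the control by more than the spread among libraries, while the members beside them are.

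Of the 7 listed genes between members, 5 had all 3 libraries with both treatments above the 9 others, which held for 8.18% of annotated genes. Among tested members in runs, 7 of 13 rose with low pH alone, against 2 of 28 tested members elsewhere and 16.5% of all tested loci. With copper alone 6 of 13 rose, against 8 of 28 elsewhere and 28% of all tested loci. This split was looked at after the calls were known and is given without a test. Genes in a run may be near-identical copies that share reads, in which case the levels of single members are uncertain.

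The same criteria were met by 5 assembled loci, which are not among the 57. The locus on chromosome 3 from 767533 to 768050, with 356.89, 723.52 and 551.43 FPKM with both treatments and 0.13 to 12.88 FPKM elsewhere, ends 2.49 kb before Cs3g01585. In both, replicate 3 of the control was the highest of the 9 other libraries. The loci on chromosome 5 from 24366991 to 24367516 and from 24368952 to 24369594 lie 5.72 and 7.68 kb beyond the end of Cs5g21860, and had 35.33, 29.83 and 43.88 FPKM and 25.61, 51.36 and 42.66 FPKM with both treatments, with at most 1.93 and 2.53 FPKM elsewhere. Whether these loci and the genes beside them belong to the same transcripts was not tested.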

How the data were processed

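Each of the 12 root libraries came with its own table, in which the authors deposited FPKM to 2 decimals and the position of each locus. The submitters' processing notes name HISAT2 2.1.0, StringTie 1.3.4d, featureCounts 1.6.2, fastp 0.19.3 and DESeq2 1.22.1, with no role or order; genome build, annotation and strand setting were not stated in any source used here. Raw counts were not used here: values of genes under 900 bp and 6 FPKM came within 0.15 of a whole fragment in 76.1% to 79.0% of cases (30% by chance), which gave each library's depth but no full set of counts. Floors cover counting error only. The genes and comparisons were chosen with earlier results of these data known.

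FPKM was transformed as log2(FPKM + 1). Loci reaching a mean of 1 FPKM in any of the groups pH 3 with 0.5 µM copper, pH 4.8 with 300 µM and control were fitted in limma 3.58.1 (R 4.3.3) with group means and a variance trend, on 9 libraries. The group with both treatments stayed out because it had chosen the genes. P-values are two-sided, with Benjamini-Hochberg adjustment over 18871 loci in each of the 3 tests. The fit was tested on simulated data of 18337 loci for copper at pH 4.8, with the same noise in every group: 52%, 94% and 100% of genes raised by 0.5, 1 and 2 log2 units were called, 88% of those lowered by 1, and 5 of 172 calls were false. The changed genes, 50 of each size, were drawn from loci at 2 FPKM or more, and far fewer loci were changed than were called in the data. Most of the selected genes lie below that level outside the combination, so these percentages do not describe detection among them. Alternatives were the pseudocount, the filter on low values, quantile or median scaling, all 12 libraries, a replicate block and each library left out.

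Members named are the 8 most abundant, the 8 widest margins, the 3 genes nearest the threshold on each side, the 3 widest and the 3 narrowest spreads, up to 3 rises and 3 falls per test, and those in runs. Genes flanking or lying between members, and the further called members, were named after their values were seen.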

Additional observations from a re-analysis of the deposited data

How the results depend on the processing

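The number of genes that met the criteria was 57 as reported, also under quantile normalization, and it was 30 at a fold of 6. It ranged from 56 to 65 when 1 library at a time was left out, and the other alternatives (a fold of 3, other minimum means, median scaling, FPKM + 1, assembled loci included) gave 40 to 79. With a minimum mean of 5 FPKM, which leaves 12 members to test, copper alone raised 7 and lowered 2 (30.3% and 34.1% of all 13260 loci), low pH alone raised 4 and lowered 0 in limma (20.4% and 29.4% of loci; both genes that fell lie under that minimum), and low pH against copper gave 5 higher and 5 lower (26.3% and 36.3%). Some members passed this minimum through a treated group only, such as Cs5g25760 with copper and Cs9g08660 with low pH. Entry and call are thus not independent. Leaving out 1 library at a time gave 11 to 18 higher and 5 to 8 lower for copper alone, 8 to 11 higher and 1 to 3 lower for low pH alone, and 6 to 11 higher and 8 to 12 lower for low pH against copper. Same-numbered libraries showed no steady pairing: r of deviations from group means was -0.22 to 0.24 over 18 such pairs, 7 of them over 0.1. A library correlated best with its own number in 17 of 36 cases. Between copper alone and the control, r was 0.15, 0.07 and 0.16 for replicates 1, 2 and 3, each above every different-numbered r of these groups. With the replicate block, calls were 13 higher and 7 lower for copper alone, 9 and 2 for low pH alone, and 10 and 10 for the direct comparison. Over the 27 genes called in any test, 787 differences were recomputed under alternatives: 735 kept direction and call, 52 lost the call and 0 reversed. Several alternatives leave a difference as it was and can change its call only. These are the filter on low values, all 12 libraries, the replicate block, and leaving out a library of the group outside the comparison. A reversal was not possible there, so these totals overstate how far the directions were checked. With copper alone, the call of Cs9g14480 was also lost under quantile normalization, median scaling, all 12 libraries and the replicate block (0.45 to 0.50), and that of Cs6g03490 under quantile normalization (0.31). Members in runs numbered 12 when adjacent genes were required, 15 within 50 kb and 17 within 10 places.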
